A study of Homo sapiens with 6 samples.

Results

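Aminoacyl-tRNA synthetases join each amino acid to its tRNA, and the transcripts of 36 genes for these enzymes were measured by RNA-seq in HCCLM3 cells, a human hepatocellular carcinoma line with high metastatic potential. The family was taken by gene symbol from the 20381 genes of the deposited table, with 20 genes for enzymes of the cytosol and 16 for enzymes of the mitochondria. It was chosen by the difference between PON1-OE and NC in these same libraries, so every value of that difference given here is a description of the members and supports nothing beyond them. The promoter sequences were not used in that choice, nor were the level per length and the cytosolic to mitochondrial ratio over all 6 libraries. Differences of this ratio between PON1-OE and NC come from the same contrast and are descriptions too.

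The 3 PON1-OE libraries came from HCCLM3 cells given the *PON1* coding sequence by lentivirus, and the 3 NC libraries from cells given the empty vector. *PON1* encodes paraoxonase 1, a lipid-bound esterase that the liver secretes. The labels and the methods of the study describe stable, puromycin-selected lines, whereas the series text states 15% serum and cells lysed 24 h after transfection. RNA was selected for poly(A) tails. Whether the 3 replicates came from separate infections or cultures is not given in the sources used here, so n counts libraries and the SD, standard errors and p-values measure the spread between these libraries, which may be technical.

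The libraries held 15706672 to 17948383 estimated counts, of which 0.560% to 0.589% fell on the 36 genes. The rounded counts of *PON1* were 0, 2 and 3 across the NC and 155, 181 and 167 across the PON1-OE libraries (here and below in the order of replicates 1, 2 and 3), in the direction of the labels and at least 60.0-fold higher against a floor of 3 counts per library. Of 12 markers of hepatocytes and liver cancer, 9 passed the filter on low counts. The keratin *KRT8* had a mean of 2410 CPM (counts scaled to library size) in NC and 2352 in PON1-OE, and the liver factor *HNF4A* 78.6 and 80.2, while albumin (*ALB*) was at 0.578 and 0.456 CPM and *APOA1*, *TTR* and *SERPINA1* did not pass. In edgeR 0 of the 9 had an adjusted p under 0.05, against 0.677% of all genes tested. At an unadjusted p under 0.05 there was 1, against 11.1% of all genes tested. It was *APOB* (apolipoprotein B), at 5.77 CPM in NC and 4.49 in PON1-OE (adjusted p = 0.443 in edgeR). Transferrin (*TF*) had 21.3 and 19.0 CPM, with every PON1-OE library below every NC library, and alpha-fetoprotein (*AFP*) had 0.513 and 0.933 CPM with overlapping groups. The leukocyte markers *PTPRC* and *CD3E* had no count in any library, and the summed level of the 5 leukocyte markers, nearly all of it *CD68*, was 207 to 227 CPM in NC and 225 to 249 CPM in PON1-OE (*CD68* log2 difference 0.13, unadjusted p under 0.05, adjusted p = 0.252 in edgeR). The summed level of 5 fibroblast and stellate cell markers was 15.98 to 20.95 CPM in NC against 16.6 to 20.2 CPM in PON1-OE, and that of 3 endothelial markers 13.3 to 13.8 CPM against 14.1 to 16.4 CPM, nearly all of it *PECAM1*. The part of *CD68* and *PECAM1* in the values below was not tested.

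Each synthetase recognizes one amino acid and the tRNAs that carry it, and the charged tRNAs are then brought to the ribosome by elongation factors. Mitochondria translate the few proteins of their own genome with a separate set of enzymes, which are encoded in the nucleus and imported. Most amino acids therefore have one gene for the cytosol and another for the mitochondria. *GARS1* (glycine) and *KARS1* (lysine) are exceptions, since each makes both forms of its enzyme. *EPRS1* encodes a fused enzyme for glutamate and proline, and *FARSA* and *FARSB* encode the 2 kinds of subunit of the phenylalanine enzyme. Several cytosolic enzymes, among them those of *EPRS1*, *IARS1*, *KARS1*, *LARS1*, *MARS1*, *QARS1* and *RARS1*, sit in a multisynthetase complex. Cytosolic synthetase genes are known targets of ATF4, the transcription factor whose translation rises when the kinase GCN2 senses uncharged tRNA.

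The promoters are shown first because they hold the letters of a known binding element of ATF4 with C/EBP proteins in cytosolic members. RefSeq windows on GRCh38.p14, from 250 bases before a start site to 50 after it, were held for 30 of the 36 genes. *AARS2*, *LARS1*, *TARS3*, *VARS1*, *VARS2* and *YARS1* had no entry. The element TGATGCAA, searched on both strands, stood in the windows of 6 of 16 cytosolic genes and of 0 of 14 mitochondrial genes. Among all 35116 windows it stood in 0.866%, and among all 27305 genes in 1.08%. The stretches of 30 bases around it are given 5′ to 3′ on the strand of each gene, with the element in capitals. It reads as TTGCATCA, the reverse complement, in all of them except *NARS1*.
AARS1: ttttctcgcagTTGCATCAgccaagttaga
IARS1: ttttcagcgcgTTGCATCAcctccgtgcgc
CARS1: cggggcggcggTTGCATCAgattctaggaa
MARS1: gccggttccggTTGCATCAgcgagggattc
TARS1: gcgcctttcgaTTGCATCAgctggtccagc
NARS1: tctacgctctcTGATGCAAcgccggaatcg
In *AARS1* (chr16:70289675-70289704, minus strand) the element began 187 bases before the start site, and in *IARS1* (chr9:92293692-92293721, minus strand) 13 bases before it. In *CARS1* (chr11:3057407-3057436, minus strand) it began 2 bases before the start site, and in *MARS1* (chr12:57488053-57488082, plus strand) 4 bases before it. In *TARS1* (chr5:33440956-33440985, plus strand) and *NARS1* (chr18:57621804-57621833, minus strand) it began 3 and 15 bases into the transcript, counting the start site as 1.

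With any base at the sixth position (TGATGNAA, which contains TGATGCAA), the windows of 7 cytosolic and 1 mitochondrial gene held a match, against 3.62% of all windows and 4.46% of all genes. The added ones are *GARS1*, 33 bases before its start site (chr7:30594834-30594863, plus strand), and *YARS2*, 197 bases before its start site (chr12:32756076-32756105, minus strand), here with the match in capitals.
GARS1: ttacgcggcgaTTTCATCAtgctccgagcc
YARS2: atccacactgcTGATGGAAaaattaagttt
CCAAT, a common promoter element bound by NF-Y, stood in the windows of 7 of 16 cytosolic and 9 of 14 mitochondrial genes and in 34.6% of all windows (39.7% of all genes). CACGTG, the E-box, stood in those of 1 cytosolic and 3 mitochondrial genes and in 7.26% of all windows (8.78% of all genes). TATAA stood in those of 3 cytosolic and 3 mitochondrial genes and in 20.4% of all windows (24.2% of all genes), and TGACGTCA, the cyclic AMP response element, in 0 of the 30 genes and in 1.85% of all windows (2.25% of all genes). All were searched on both strands. A match describes the letters of a window and is not a shown binding site. The differences between PON1-OE and NC covered overlapping ranges in the 6 cytosolic genes with TGATGCAA and the 10 with a window without it. The fitted log2 fold change of PON1-OE over NC (log2FC) had a median of 0.050 with the element, from 0.03 to 0.13, and of 0.072 without it, from −0.03 to 0.10.

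Levels of different genes were compared in CPM per kb of transcript, with the median length of the protein-coding transcripts of each gene in GENCODE v29. On this scale, the median over the 20 cytosolic genes was 84.9 ± 2.27 (SD over the 6 libraries) and that over the 16 mitochondrial genes 9.47 ± 0.220, so the cytosolic median was 8.97-fold higher. This ratio of medians was between 8.63 and 9.40 in each single library. It was 8.36 when the longest transcript gave the length and 16.1 when all annotated transcripts did. Of the cytosolic genes, 13 stood above the highest mitochondrial gene, and 8 of the mitochondrial genes were under 10 CPM per kb.

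*GARS1* had the highest level in the cytosolic group, at 388 ± 16.7 CPM per kb (SD, n = 6), with 218 by its longest transcript. The median length of its 2 coding transcripts is 1479 bases, and the longest has 2634. *MARS1* (methionine) followed at 337 ± 12.7, but at 162 by its longest transcript, since short coding transcripts pull its median length to 1.40 kb. In GENCODE v29 *MARS1* also shares exonic bases with *DDIT3* and *ARHGAP9* on the opposite strand. *SARS1* (serine) stood at 213 ± 8.87, *YARS1* (tyrosine) at 197 ± 8.43 and *AARS1* (alanine) at 179 ± 9.07 CPM per kb. *SARS1* and *YARS1* lay within the summed SD of each other, and *YARS1* and *AARS1* just outside it. In the middle stood *NARS1* (asparagine, 133), *TARS1* (threonine, 113), *CARS1* (cysteine, 106), *IARS1* (isoleucine, 87.3), *KARS1* (86.2), *WARS1* (tryptophan, 84.1) and *RARS1* (arginine, 82.4 CPM per kb). Within the last 4 of these, neighbors in the order differed by less than the larger SD of the pair, which was 3.64 to 4.04 CPM per kb. By the longest transcript 6 cytosolic levels were more than 1.5 times lower, those of *GARS1* and *MARS1* and also of *RARS1* (44.6), *TARS1* (66.4), *LARS1* (41.8) and *HARS1* (11.5 CPM per kb), and the places of these genes in the order changed except for that of *GARS1*. On that length *GARS1* stood just above *SARS1*, at 218 against 211 CPM per kb. By median length *LARS1* (leucine), *FARSA* and *EPRS1* had 67.0, 62.6 and 57.7 CPM per kb.

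A step separated these genes from *VARS1* (valine, 23.6), *HARS1* (histidine, 21.7), *FARSB* (15.1) and *QARS1* (glutamine, 15.0 CPM per kb). The transcripts for the subunits of the phenylalanine enzyme thus differed in level per length. *FARSA* was 4.14-fold above *FARSB*, and 3.65-fold by the longest transcript. Protein was not measured, so the amounts of the subunits are not known from these data. Among the genes of the multisynthetase complex the transcript levels also ranged widely, from *QARS1* at 15.0 to *MARS1* at 337 CPM per kb. The lowest gene was *TARS3*, a close relative of *TARS1* for a second threonine enzyme. Its CPM was 4.72, 5.25 and 4.87 across the NC and 5.48, 4.69 and 5.30 across the PON1-OE libraries, which is 1.69 ± 0.112 CPM per kb (SD, n = 6). *GARS1* was 229-fold above it by the median length. By the longest transcript *GARS1* stood at 218 and *TARS3* at 1.40 CPM per kb.

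Among the mitochondrial genes *TARS2* (threonine) led with 64.2 ± 1.95 CPM per kb (SD, n = 6). Its CPM was 136, 141 and 145 across the NC and 133, 140 and 142 across the PON1-OE libraries, and the groups overlapped. *IARS2* (isoleucine) followed with 39.4, *YARS2* (tyrosine) with 20.3, *CARS2* (cysteine) with 16.4 and *HARS2* (histidine) with 14.2 CPM per kb. *NARS2* (asparagine, 11.1), *LARS2* (leucine, 10.8) and *RARS2* (arginine, 10.5) were within their SD of 0.383 to 0.811. *EARS2*, which also charges the mitochondrial glutamine tRNA with glutamate, had 8.76 CPM per kb.

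*MARS2* (methionine, 6.28), *SARS2* (serine, 5.48), *AARS2* (alanine, 5.34) and *PARS2* (proline, 5.12) came next, the last 3 within their SD of 0.180 to 0.595. *VARS2* (valine) had 3.64, *WARS2* (tryptophan) 2.75 and *FARS2* (phenylalanine) 2.71 CPM per kb. The lowest of these genes, *FARS2*, had 5.03, 4.81 and 3.40 CPM across the NC and 5.60, 4.13 and 4.34 CPM across the PON1-OE libraries, with overlapping groups. *WARS2* and *FARS2* did not differ beyond their spread.

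**Figure D1:**
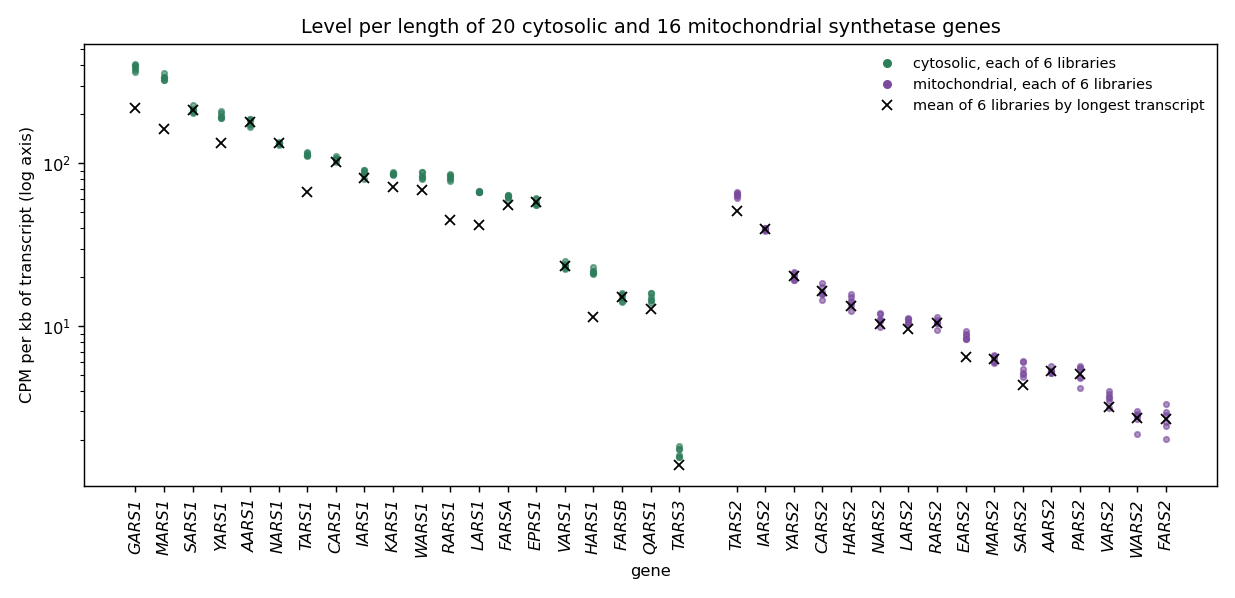
CPM per kb of transcript (log axis) of each gene, ordered within the cytosolic and the mitochondrial group, with a point for each of the 6 libraries and a cross for the mean when the longest transcript gives the length. Cytosolic genes run from 388 (*GARS1*) to 1.69 (*TARS3*) and mitochondrial genes from 64.2 (*TARS2*) to 2.71 (*FARS2*), and the 6 libraries of a gene lie close together beside these ranges.

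Pairs were formed for the 13 amino acids whose cytosolic and mitochondrial genes share a symbol stem. For threonine *TARS1* was taken as the cytosolic gene, without *TARS3*. Phenylalanine (*FARSA* and *FARSB*, *FARS2*), glutamate (*EPRS1*, *EARS2*) and proline (*EPRS1*, *PARS2*) also have members in both compartments but were not paired. In all 13 pairs the cytosolic gene had the higher mean level per length, and by the longest transcript it did in 12. By median length the methionine pair was most unequal, with *MARS1* 53.7-fold above *MARS2* (log2 ratio 5.75 ± 0.06, SD over the 6 libraries). Serine (38.9-fold), alanine (33.5-fold) and tryptophan (30.7-fold) were next. Asparagine had a ratio of 11.97, tyrosine of 9.72, arginine of 7.83, cysteine of 6.51, valine of 6.50 and leucine of 6.20. By the longest transcript serine led with 48.7-fold, ahead of alanine (33.5-fold), methionine (25.9-fold) and tryptophan (25.0-fold).

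The ratios were smallest for isoleucine (2.22), threonine (1.77) and histidine (1.54). *HARS1* over *HARS2* was the pair whose direction rested on the length used, since its ratio became 0.864 by the longest transcript. Between the groups, the log2 ratio was higher in PON1-OE for 7 of the 13 pairs and lower for 6, with mean differences from −0.16 (histidine) to 0.16 (alanine). For alanine, the log2 ratio was 4.99 ± 0.09 in NC and 5.14 ± 0.03 in PON1-OE (SD, n = 3 each), and every PON1-OE library lay above every NC library. The groups overlapped in the other 12 pairs. Among single genes rather than ratios, 8.32% of all genes tested had all PON1-OE above all NC libraries, and 7.74% all below.

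**Figure D2:**
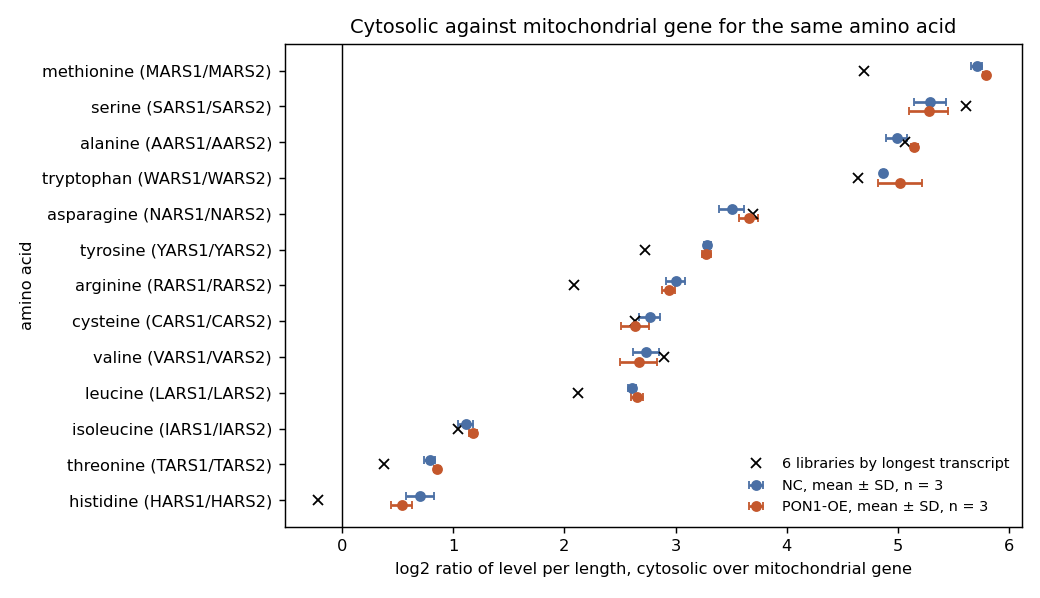
Log2 ratio of the level per length of the cytosolic over the mitochondrial gene for 13 amino acids, as mean ± SD of 3 libraries for NC and for PON1-OE, with a cross for all 6 libraries by the longest transcript. By median length the ratios run from 0.62 (histidine) to 5.75 (methionine) over the 6 libraries, and the groups lie close beside the distance between amino acids.

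In PON1-OE against NC, the differences of the 36 members were small, from 8.51% lower (*NARS2*) to 13.1% higher (*HARS2*). By the quasi-likelihood test of edgeR, with Benjamini-Hochberg adjustment over 11958 genes, 0 of the 36 members had an adjusted p under 0.05, against 0.677% of all genes, 0.502% in the direction of higher in PON1-OE. All 36 members had passed the filter. At an unadjusted p under 0.05 there were 7, or 19.4% of the members, all of them higher in PON1-OE, against 11.1% of all genes, 5.91% higher and 5.17% lower. Since the family was chosen by this contrast, nothing is read from these shares. DESeq2 gave 1 member (*AARS1*) an adjusted p and 5 an unadjusted p under 0.05, and limma-voom 0 and 7. The count of 7 became 4 without either NC replicate 2 or NC replicate 3 and 2 without PON1-OE replicate 3, and was 5 or 6 without each of the other libraries.

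Of the cytosolic genes, 18 of 20 had a log2FC above 0, and of the mitochondrial genes 8 of 16, against 49% of all genes tested. The median log2FC was 0.058 for the cytosolic genes, 0.023 for the mitochondrial genes and −0.0025 over all genes tested. The difference of the first from the second, 0.035, was close to the spread of the same difference between libraries of a group (SD 0.035). Leaving out single libraries gave a cytosolic median of 0.047 to 0.078. The mitochondrial median had no fixed sign, and it was 0.0016, −0.0023 and 0.0048 with NC replicates 1, 2 and 3 left out in turn, and 0.039, 0.041 and −0.011 with the PON1-OE replicates left out in the same order. The difference of the medians ranged from 0.012 to 0.072 over these fits, the highest without PON1-OE replicate 3.

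Taken library by library, the median log2 deviation of the cytosolic genes from their NC means was 0.0033, −0.022 and 0.011 across the NC and 0.016, 0.085 and 0.049 across the PON1-OE libraries. PON1-OE replicate 1 thus lay next to NC replicate 3, and the other PON1-OE libraries stood higher. For the mitochondrial genes the same value was 0.0074, 0.029 and −0.021 across the NC and −0.00061, 0.019 and 0.019 across the PON1-OE libraries, and the groups overlapped.

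The summed CPM of the 20 cytosolic genes was 5078, 4963 and 5123 across the NC and 5208, 5356 and 5296 across the PON1-OE libraries. Every PON1-OE library lay above every NC library, with a mean difference of 232 CPM or 4.59%. *AARS1* made up 23.9% of this difference, *GARS1* 16.6% and *YARS1* 10.5%. The sum of the mitochondrial genes was 582, 590 and 585 CPM across the NC and 577, 595 and 604 CPM across the PON1-OE libraries, where the groups overlapped. In bulk libraries a change of RNA per cell and a change in the cells present cannot be told apart.

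**Figure D3:**
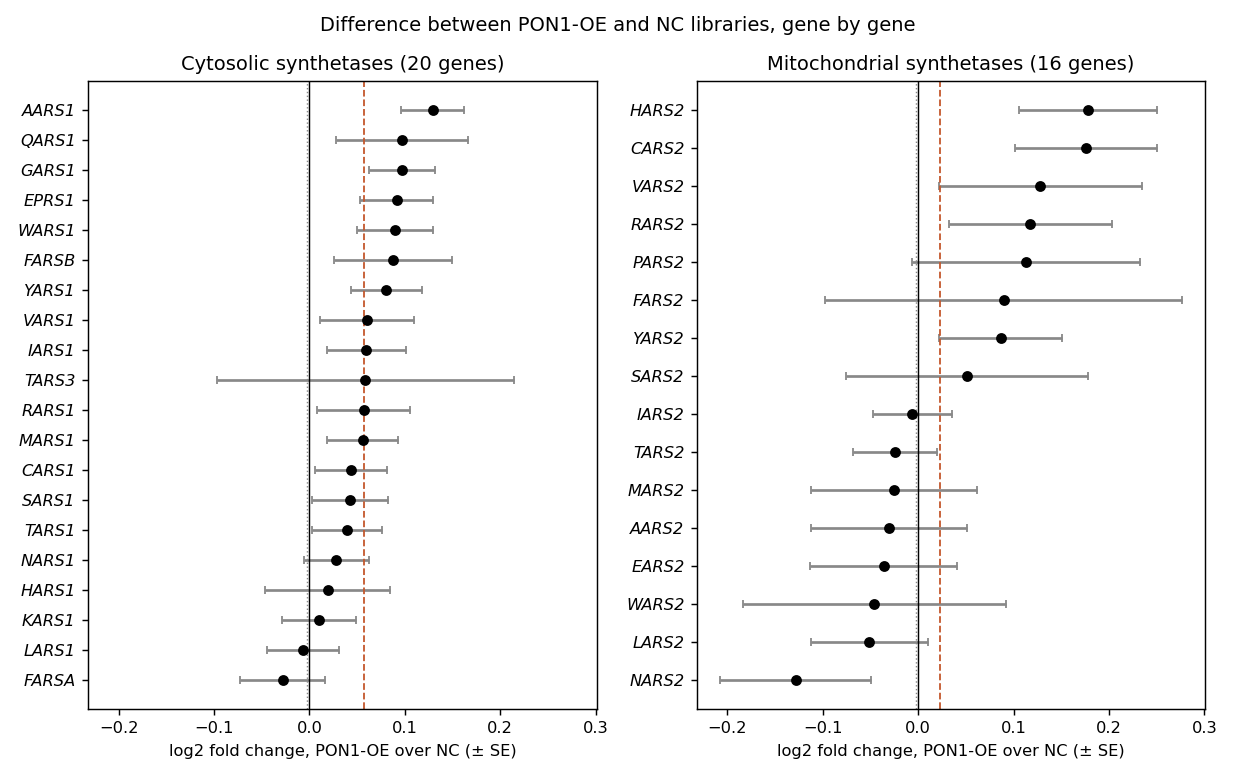
Log2FC of PON1-OE over NC with its standard error for the 20 cytosolic (left) and 16 mitochondrial genes (right), with a dashed line at the median of each panel and a dotted line at the median of all genes tested. The cytosolic genes lie between −0.03 and 0.13 with 18 above 0, and the mitochondrial genes spread from −0.13 to 0.18 on both sides of 0 with wider error bars.

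*AARS1* (ENSG00000090861, chromosome 16, 70252295 to 70289543 on the minus strand of GRCh38 in GENCODE v29) had the lowest p of the family. Its level was 595, 582 and 604 CPM across the NC and 642, 654 and 652 CPM across the PON1-OE libraries. All PON1-OE libraries were above all NC libraries, with means of 594 ± 11.3 and 649.5 ± 6.48 CPM (SD, n = 3 each). The log2FC was 0.13 (standard error 0.033), 9.36% higher in PON1-OE. Its adjusted p was 0.0833 in edgeR's quasi-likelihood test, and it ranged from 0.00363 in DESeq2 to 0.317 over the alternatives.

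*GARS1* (ENSG00000106105, chromosome 7, 30594681 to 30634033, plus strand), the gene of both forms of the glycine enzyme, had 571, 536 and 557 CPM across the NC and 583, 595 and 601 CPM across the PON1-OE libraries. The groups did not overlap, and the log2FC was 0.10 (standard error 0.035). *EPRS1* (ENSG00000136628, chromosome 1, 219968601 to 220046658, minus strand) had 286, 277 and 278 CPM across the NC and 304, 286 and 306 CPM across the PON1-OE libraries, with a log2FC of 0.09 (standard error 0.038). PON1-OE replicate 2 was here barely above NC replicate 1, at 285.6 against 285.5 CPM.

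*WARS1* (ENSG00000140105, chromosome 14, 100333788 to 100376805, minus strand) encodes the tryptophan enzyme, whose transcript interferon is known to raise. It had 203, 201 and 209 CPM across the NC and 208, 223 and 221 CPM across the PON1-OE libraries, with a log2FC of 0.09 (standard error 0.040). PON1-OE replicate 1 lay below NC replicate 3. *YARS1* (ENSG00000134684, chromosome 1, 32775237 to 32818153, minus strand) had 416, 431 and 418 CPM across the NC and 426, 463 and 449 CPM across the PON1-OE libraries, with a log2FC of 0.08 (standard error 0.037). PON1-OE replicate 1 lay below NC replicate 2 here as well. In GENCODE v29 *WARS1* shares exonic bases with *WDR25* (287) and *YARS1* with *S100PBP* (396) on the opposite strand, and whether counting used strand is not given in the sources used here.

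*HARS2* (ENSG00000112855, chromosome 5, 140691426 to 140699318, plus strand) had the largest log2FC of the family, 0.18 (standard error 0.072). Its level was 31.7, 33.1 and 29.2 CPM across the NC and 33.7, 35.6 and 37.1 CPM across the PON1-OE libraries, and the groups did not overlap. The gene stands head to head with *HARS1* on the minus strand. The RefSeq start sites are separated by 84 bases (chr5:140691371-140691454 on GRCh38.p14), and GENCODE v29 has 437 exonic bases of *HARS2* that also belong to *HARS1* on the other strand, and 152 shared with *ZMAT2* on the same strand. *HARS1* itself had a log2FC of 0.02 (standard error 0.066), whose sign turned without NC replicate 2 (−0.0019) and without PON1-OE replicate 2 (−0.023).

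*CARS2* (ENSG00000134905, chromosome 13, 110641412 to 110713603, minus strand) had 29.9, 29.6 and 27.3 CPM across the NC and 30.5, 32.8 and 34.8 CPM across the PON1-OE libraries. The groups did not overlap, and the log2FC was 0.18 (standard error 0.074). It shares 326 exonic bases with *ING1* on the opposite strand. These 7 genes are those with an unadjusted p under 0.05. Their adjusted p was 0.263 to 0.428 apart from *AARS1* in edgeR's quasi-likelihood test.

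**Figure D4:**
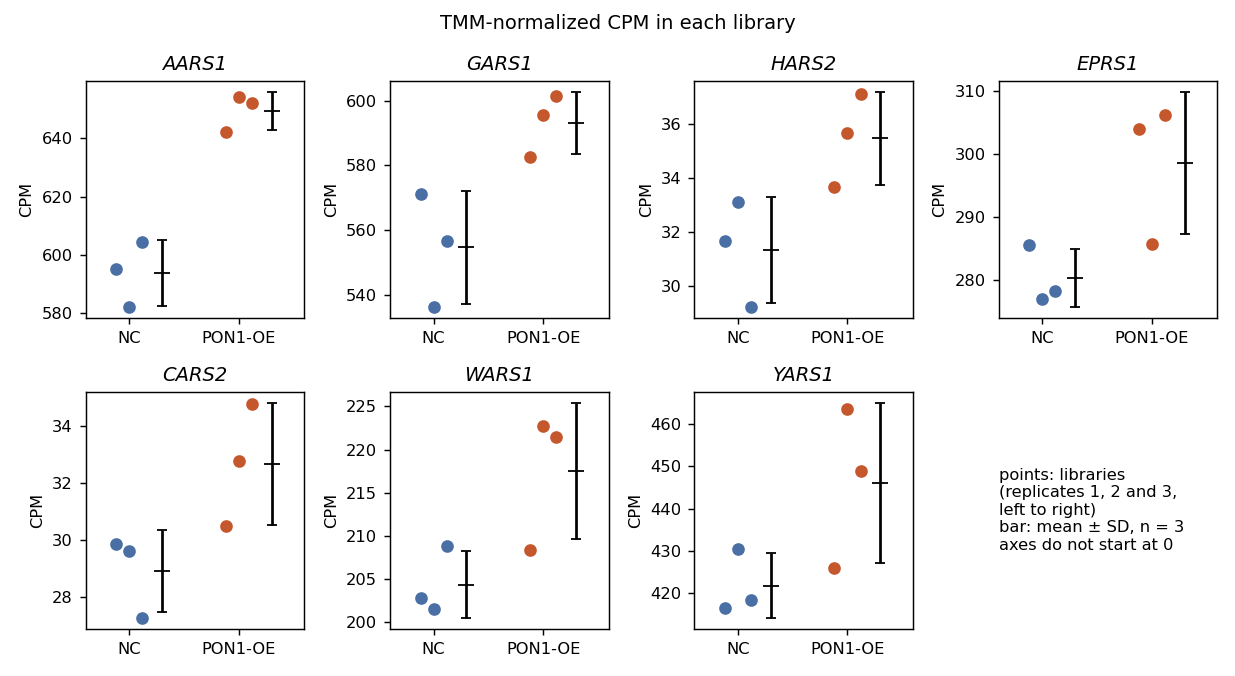
TMM-normalized CPM of the 7 members with an unadjusted p under 0.05, with a point for each library (replicates 1 to 3 from left to right) and the mean ± SD of 3 libraries per group. The groups are apart in *AARS1*, *GARS1*, *HARS2*, *EPRS1* and *CARS2* and overlap in *WARS1* and *YARS1*, and no axis starts at 0.

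Over the whole family, every PON1-OE library lay above every NC library in 6 members, 3 cytosolic and 3 mitochondrial, and below in 1, against 8.32% and 7.74% of all genes tested. The sixth was *RARS2*, with 19.0, 19.0 and 17.2 CPM across the NC and 19.8, 19.2 and 20.7 CPM across the PON1-OE libraries. The member below was *LARS1*, with 199.96, 199.79 and 199.50 CPM across the NC and 198.92, 198.62 and 198.99 CPM across the PON1-OE libraries. Its fitted change was −0.454%, while its 6 libraries varied by 0.268% around their mean, less than the 1.74% that counting error alone gives for one library at its mean count.

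Other cytosolic genes had values between these. *QARS1* had a log2FC of 0.10 (standard error 0.069) and *FARSB* of 0.09 (0.062), and their groups overlapped. *VARS1*, *IARS1*, *TARS3*, *RARS1* and *MARS1* lay at 0.06, *CARS1*, *SARS1* and *TARS1* at 0.04 and *NARS1* at 0.03. *KARS1*, the gene of both lysine enzymes, had 174, 171 and 172 CPM across the NC and 170, 174 and 176 CPM across the PON1-OE libraries, with a log2FC of 0.01 (standard error 0.039), whose sign turned without PON1-OE replicate 3 (−0.0015). It differs in this from *GARS1*, the other gene with products in both compartments, by values that were not tested against each other. *FARSA* had the lowest log2FC of the cytosolic genes, −0.03 (standard error 0.045), with 113, 116 and 114 CPM across the NC and 112, 117 and 109 CPM across the PON1-OE libraries.

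Among the other mitochondrial genes, *VARS2* had a log2FC of 0.13, *RARS2* of 0.12, *PARS2* of 0.11, *FARS2* and *YARS2* of 0.09 and *SARS2* of 0.05. *IARS2*, *TARS2*, *MARS2*, *AARS2*, *EARS2*, *WARS2* and *LARS2* lay between −0.05 and −0.01. *NARS2* had the lowest value of the family, −0.13 (standard error 0.079), with 27.6, 28.2 and 25.1 CPM across the NC and 23.0, 25.3 and 25.8 CPM across the PON1-OE libraries, where the groups overlapped. It was −0.07 without PON1-OE replicate 1. *PARS2* had a log2FC of 0.01 without NC replicate 1 and of 0.24 without NC replicate 2, *VARS2* of 0.06 without NC replicate 2 and *RARS2* of 0.07 without NC replicate 3. The error was larger in the mitochondrial group, with a median standard error of 0.080 against 0.040 for the cytosolic genes. The mean count per library was 75.7 for *FARS2* and 10315 for *AARS1*. *VARS2* shares 1858 exonic bases with *GTF2H4* on the same strand, and *SARS2* also shares exons with a gene on its strand, so their counts depend on how such reads were divided.

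The 7 members of the multisynthetase complex had a median log2FC of 0.057, and the 13 other cytosolic genes of 0.058. The complex also holds the scaffold proteins of *AIMP1*, *AIMP2* and *EEF1E1*, which carry no synthetase activity. Their log2FC was −0.06, −0.01 and −0.11, and in edgeR 0 of the 3 had an adjusted or an unadjusted p under 0.05. Of 4 genes that complete charging in mitochondria, 0 had an adjusted p under 0.05. *GATC*, a subunit of the enzyme that turns mischarged glutamate into glutamine on the mitochondrial tRNA, had a log2FC of −0.11 (standard error 0.046) and an unadjusted p under 0.05, without passing after adjustment (adjusted p = 0.358 in edgeR). It was the only one of the 4 with an unadjusted p under 0.05, against 11.1% of all genes tested.

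Of 7 genes that deliver charged tRNA to the ribosome, 0 had an adjusted p under 0.05 in edgeR's test, against 0.677% of all genes. At an unadjusted p under 0.05 there was 1, against 11.1% of all genes tested. This was *EEF1A2*, an elongation factor of muscle and nerve, with a log2FC of −0.13 (standard error 0.044, adjusted p = 0.229). *EEF1A1*, its abundant relative, had a log2FC of 0.03 (standard error 0.029).

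The list of the GCN2-ATF4 response held 20 genes, of which 19 were tested. By the quasi-likelihood test of edgeR, 3 of them had an adjusted p under 0.05, all higher in PON1-OE, against 0.677% of all genes and 0.502% in that direction. The list was written with earlier results of these libraries known. *ASNS*, asparagine synthetase, rose from 372, 363 and 375 CPM across the NC to 419, 467 and 436 CPM across the PON1-OE libraries. Its log2FC was 0.25 (standard error 0.039, adjusted p = 0.0038), and the adjusted p stayed under 0.05 in all 12 alternatives, at most 0.0259. *PHGDH* and *PSAT1*, which encode enzymes of serine synthesis, also rose. *PHGDH* had 148, 132 and 142 CPM across the NC and 168, 181 and 154 CPM across the PON1-OE libraries, a log2FC of 0.25 (standard error 0.055, adjusted p = 0.0325). *PSAT1* had 497, 468 and 486 CPM across the NC and 545, 551 and 525 CPM across the PON1-OE libraries, a log2FC of 0.16 (standard error 0.035, adjusted p = 0.038).

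The calls of *PHGDH* and *PSAT1* rested on single libraries and on the design. With the replicate number as a block the adjusted p in edgeR was 0.0689 for *PHGDH* and 0.105 for *PSAT1*. For *PHGDH* the adjusted p in edgeR was 0.109 and 0.172 without NC replicates 2 and 3, and 0.0831 and 0.0959 without PON1-OE replicates 1 and 2. For *PSAT1* it was above 0.05 without any one of the 6 libraries, from 0.055 without PON1-OE replicate 2 to 0.194 without NC replicate 3. *SESN2* (log2FC 0.25), *SHMT2* (0.12) and *PPP1R15A* (0.07) had an unadjusted p under 0.05 and did not pass after adjustment, with adjusted p of 0.14, 0.217 and 0.403 in edgeR's test. *SESN2* did pass with no filter (adjusted p = 0.00596) and without PON1-OE replicate 2 (adjusted p = 0.00492). *ATF4* itself had a log2FC of −0.02 (standard error 0.038) and *DDIT3*, another of its targets, of −0.05 (0.053). The median log2FC of the 19 genes was 0.053. Of the 18 genes of this list with a promoter window, 1 (*CHAC1*) held TGATGCAA. The wider form TGATGNAA was not searched for in this list.

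**Figure D5:**
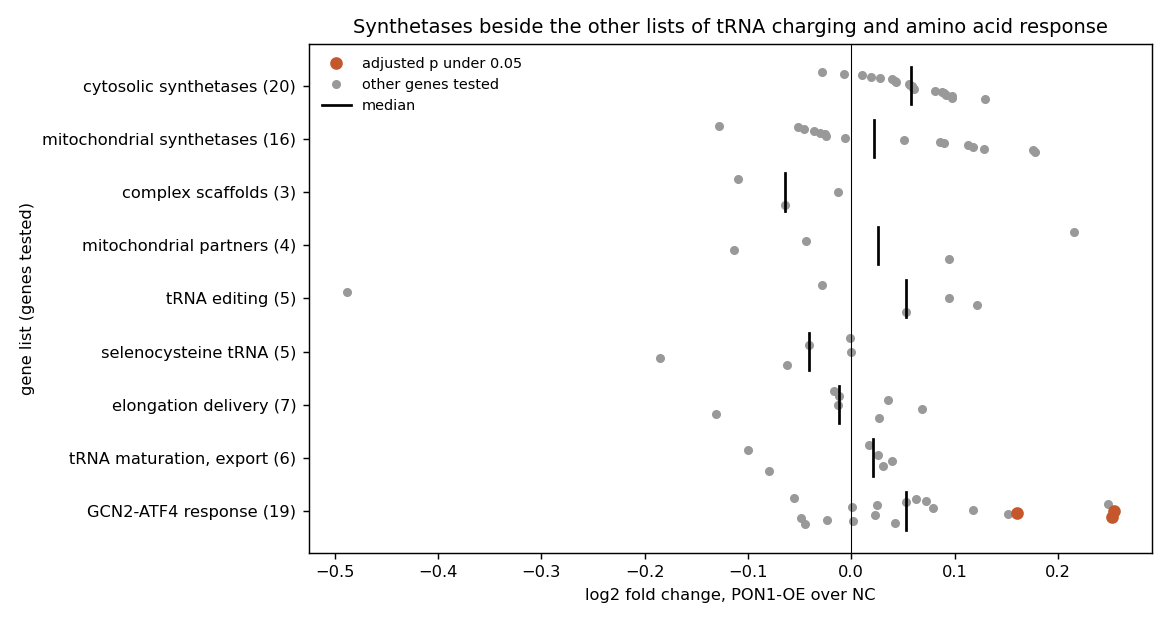
Log2FC of PON1-OE over NC for each tested gene of the synthetases and of 7 other lists, with a bar at the median of each list and larger points for an adjusted p under 0.05. The only larger points are the 3 genes *ASNS*, *PHGDH* and *PSAT1* of the GCN2-ATF4 response, and the 20 cytosolic genes are grouped just above 0.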

How the data were processed

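RNA-seq of poly(A) RNA (NEBNext Ultra kit, Illumina NovaSeq) was available for 3 PON1-OE and 3 NC libraries of HCCLM3 cells. The authors deposited estimated counts per gene, not normalized, of which 10.5% were not whole numbers. The submitters' processing notes name Bowtie2 2.2.8, HISAT2, StringTie 1.3.1 and DESeq2. The counting tool, genome build and use of strand are not given in the sources used here.

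After rounding to whole numbers, the values were fitted with edgeR 4.0.16 in R 4.3.3 (filterByExpr, TMM, quasi-likelihood test without covariates, Benjamini-Hochberg adjustment over 11958 genes), with DESeq2 1.42.0 and limma-voom (limma 3.58.1) as alternatives. The design had assumed whole counts. The fits were tested on simulated counts beforehand. CPM are TMM-normalized. A floor of 3 counts was 0.166 to 0.192 CPM and covers counting error only. Pairs of libraries of a group differed by more than sampling noise (chi-square per degree of freedom 2.11 to 4.11), and all 6 were kept. Transcript lengths and positions came from GENCODE v29, where 36 of 36 identifiers matched.

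The members and the gene lists were chosen with earlier results of these data known. All 36 members are named. Values in every library are given for members with an unadjusted p under 0.05, for the largest log2FC in each direction and the highest and lowest level per length in each compartment, and for *KARS1* and *GARS1*. Genes of other lists are named at an unadjusted p under 0.05, at most 4 a list. *AIMP1*, *AIMP2*, *EEF1E1*, *EEF1A1*, *ATF4*, *DDIT3*, *CHAC1*, *SHMT2*, *PPP1R15A*, *SEPHS2*, *KRT8*, *HNF4A*, *ALB*, *TF*, *AFP*, *PECAM1*, *RARS2* and *LARS1* were added to these after their values were seen. Alternatives were RLE size factors, other filters, a replicate block, both other tools, each library left out and other transcript lengths. Those for *PON1* and genes of the other lists were added after the data were seen.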

Additional observations from a re-analysis of the deposited data

How the results depend on the processing

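The count of members with an adjusted p under 0.05, 0 in edgeR, was 1 with no filter and 1 in DESeq2, in both cases *AARS1* (adjusted p = 0.0378 and 0.00363), and 0 in the other 10 alternatives. At an unadjusted p under 0.05 it was 2 to 6 when single libraries were left out. The replicate numbers did not pair the libraries (correlation of deviations 0.030, −0.057 and −0.015), and a fit with the replicate block gave 6 members an unadjusted p under 0.05 and 0 an adjusted one. The block ended the calls of *PHGDH* (adjusted p = 0.0689) and *PSAT1* (adjusted p = 0.105). The median log2FC of the mitochondrial genes ranged from −0.011 to 0.041 and the difference of the medians from 0.012 to 0.072 without single libraries. The sign turned without a library for *HARS1* (−0.023 to 0.047), *KARS1* (−0.0015 to 0.029), *SARS1* (−0.00068 to 0.075), *AARS2* (−0.058 to 0.0094), *EARS2* (−0.080 to 0.0058), *FARS2* (−0.066 to 0.19), *IARS2* (−0.019 to 0.011), *MARS2* (−0.075 to 0.012), *SARS2* (−0.017 to 0.16), *TARS2* (−0.045 to 0.0069) and *WARS2* (−0.14 to 0.090). It turned for none of the other 25 members in any alternative, of which 18 moved by more than 1.5 times without some library and 7 did not (*AARS1*, *EPRS1*, *FARSB*, *GARS1*, *WARS1*, *CARS2* and *HARS2*). With the longest transcript the median level per kb was 67.3 for the cytosolic and 8.05 for the mitochondrial genes and the log2 ratio of *HARS1* to *HARS2* became −0.21. With all annotated transcripts, chosen after seeing the data, the medians were 285.5 and 17.7 and this ratio 0.42. The 3 libraries per group limit the detection of differences as small as those seen here, most of all for the mitochondrial genes with few counts.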

Other observations

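Further steps of tRNA metabolism were summarized with the same fit. Of 5 genes that remove wrongly charged or blocked amino acids from tRNA, by edgeR's test 0 had an adjusted p under 0.05 and 2 had an unadjusted p under 0.05, against 11.1% of all genes tested. *DTD1*, a deacylase that clears D-amino acids from tRNA, had a log2FC of 0.12 (standard error 0.047) and a mean of 95.3 ± 3.57 CPM over the 3 NC libraries and 103.7 ± 1.57 CPM over the 3 PON1-OE libraries (SD), and its groups did not overlap. *ANKRD16*, a partner of the alanine enzyme in the clearing of mischarged serine, had a log2FC of −0.49 (standard error 0.23) at a low level, 3.40 ± 0.750 CPM in NC against 2.43 ± 0.233 CPM in PON1-OE, and its groups did not overlap either. Without NC replicate 2, the highest library, the log2FC of *ANKRD16* was −0.29 and its unadjusted p was above 0.05, as it was without PON1-OE replicate 1 or 3. The adjusted p of these genes was 0.314 and 0.431 in edgeR.

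All 5 genes of the selenocysteine tRNA pathway had a log2FC below 0, from −0.19 to −0.00054, and 0 of them had an adjusted or an unadjusted p under 0.05 in edgeR's test. *SEPHS2*, which makes the selenium donor, had 201.7 ± 3.82 CPM in NC against 201.7 ± 7.81 CPM in PON1-OE. Of 6 genes for the maturation and export of tRNA, 4 had a log2FC above 0 and 2 below, between −0.10 and 0.04, and 0 had an unadjusted p under 0.05. Their summed level was 664 to 678 CPM in NC against 669 to 678 CPM in PON1-OE.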
